A study of Homo sapiens with 4 samples.

Results

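Wide promoter H3K27ac peaks are acetylated stretches of at least 2000 bp whose summit lies within 1 kb of the start of a protein-coding transcript. They were chosen by peak width (end minus start) and by the distance of the summit to the nearest of 78701 transcript starts of 19794 protein-coding genes in GENCODE, version 44 lifted to GRCh37, in each of 4 peak lists. In all, 1365 of 251138 deposited peaks met the rule. COLO-205 had 63 of 85576 peaks, DU-145 had 726 of 75468, OVCAR-3 had 564 of 76093 and SKOV-3 had 12 of 14001. The rule used width and position, so the widths, the heights and the counts of these peaks are described here without a test.

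The study profiled H3K27ac by ChIP-seq to evaluate predicted non-coding mutations in cancer lines. COLO-205 is an established colon cancer line, DU-145 a prostate cancer line, and OVCAR-3 and SKOV-3 are ovarian cancer lines. COLO-205 and OVCAR-3 were grown in RPMI media, DU-145 in Eagle minimal essential medium and SKOV-3 in McCoy's medium, all with FBS, and no treatment is named for any of them. Each line is 1 library with no replicate, so no difference between lines can be set against a replicate error, and a line, its medium and its library cannot be told apart.

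Acetylation of lysine 27 of histone H3 is written by the CBP and p300 acetyltransferases and marks active promoters and enhancers. At an active promoter it usually sits on the nucleosomes flanking the start, which itself is often depleted of nucleosomes. At some promoters the mark runs on as a broad domain over the upstream region and into the gene body, and broad domains are known from housekeeping regulators as well as from genes of cell identity.

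The promoters that the comparison between lines turns on are shown by the 150 bases upstream of an annotated start inside the wide peak, read from GRCh37, 5′ to 3′ on the strand of the gene. Capitals mark matches, on either strand, to the CCAAT box, to the GC box GGGCGG, to the ETS site CCGGAAGT or to a CArG box. Also searched were a TATA box (TATAAA), a CRE (TGACGTCA), an AP-1 site (TGANTCA), an E-box (CACGTG) and an NRF1 site (GCGCATGC), and none of these was found in the stretches shown. ACTG1 and UBTF stand for the genes that were wide in all 4 lines. For ARID1B and IRF2BPL, the other such genes, no start had a stretch free of annotated exons, and none is shown. INF2, PLEKHG2 and ERBB2 are the genes with the widest peak among those wide only in DU-145, only in OVCAR-3 and only in SKOV-3, and PAX8 and SINHCAF were wide in both ovarian lines and in no other.
ACTG1: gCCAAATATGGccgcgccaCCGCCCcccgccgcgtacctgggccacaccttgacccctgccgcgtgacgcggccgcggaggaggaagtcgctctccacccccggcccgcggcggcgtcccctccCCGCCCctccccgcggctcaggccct
UBTF: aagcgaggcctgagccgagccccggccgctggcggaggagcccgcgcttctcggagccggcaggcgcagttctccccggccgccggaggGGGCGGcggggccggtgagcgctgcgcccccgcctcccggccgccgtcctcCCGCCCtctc
INF2: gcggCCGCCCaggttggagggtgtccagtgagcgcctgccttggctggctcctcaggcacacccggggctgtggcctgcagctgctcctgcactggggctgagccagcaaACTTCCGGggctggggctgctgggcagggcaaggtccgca
PLEKHG2: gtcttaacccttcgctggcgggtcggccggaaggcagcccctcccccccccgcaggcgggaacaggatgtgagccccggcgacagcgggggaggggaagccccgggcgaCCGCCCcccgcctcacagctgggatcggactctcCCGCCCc
ERBB2: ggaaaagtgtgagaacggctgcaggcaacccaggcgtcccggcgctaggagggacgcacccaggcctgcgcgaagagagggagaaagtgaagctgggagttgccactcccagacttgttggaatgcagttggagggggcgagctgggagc
PAX8: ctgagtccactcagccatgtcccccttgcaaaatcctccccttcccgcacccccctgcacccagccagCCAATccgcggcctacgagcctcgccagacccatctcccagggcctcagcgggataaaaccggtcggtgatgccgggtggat
SINHCAF: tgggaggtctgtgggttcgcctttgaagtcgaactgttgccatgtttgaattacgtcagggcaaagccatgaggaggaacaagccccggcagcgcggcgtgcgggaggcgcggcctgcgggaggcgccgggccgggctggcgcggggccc

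The ACTG1 stretch is chr17:79481667-79481816 on the minus strand and the UBTF stretch chr17:42296490-42296639, also on the minus strand, and both lay inside the wide peaks of all 4 lines. The start used is not the canonical start of the gene in SINHCAF, ACTG1, INF2, UBTF and ERBB2, from which it lies 1988, 1841, 1311, 554 and 88 bp away, and it is the canonical start in PLEKHG2 and PAX8. INF2 (chr14:105154494-105154643, plus), PLEKHG2 (chr19:39903159-39903308, plus) and ERBB2 (chr17:37856079-37856228, plus) lay inside a wide peak of their own line only. The PAX8 stretch (chr2:114036499-114036648, minus) was inside the wide peak of OVCAR-3, whereas the SKOV-3 peak ended at 114036391, short of it. The SINHCAF stretch (chr12:31477097-31477246, minus) was inside the wide peaks of both ovarian lines. GC content was 78.7% in ACTG1 and 82.0% in UBTF, with 21 and 23 CpG dinucleotides. In the other stretches it was 76.0% with 15 in PLEKHG2, 71.3% with 6 in INF2, 68.7% with 16 in SINHCAF, 65.3% with 9 in PAX8 and 63.3% with 8 in ERBB2. ACTG1 held its CArG box, the element bound by serum response factor, at bases -149 to -140 from the start, and GC boxes at -131 to -126 and -26 to -21. A match of letters does not show that a factor bound there.

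The share of promoter peaks that were wide differed between the lines. In DU-145, 4.25% of 17086 promoter peaks were wide (exact Clopper-Pearson 95% interval 3.95 to 4.56%, which, like every interval given here, covers counting error only). In OVCAR-3 the share was 3.31% of 17040 (3.05 to 3.59%), in COLO-205 0.485% of 12998 (0.373 to 0.62%) and in SKOV-3 0.168% of 7144 (0.0868 to 0.293%). The members lie at 804, 578, 65 and 11 genes in the same order, which is 4.06%, 2.92%, 0.328% and 0.0556% of all protein-coding genes. With peaks less than 350 bp apart merged, a step the methods of the study describe and which was not applied here, the genes numbered 1972, 1270, 253 and 87. A promoter peak of any width was found at 58.1%, 59.0%, 48.1% and 30.8% of all genes, and 6.99%, 4.95%, 0.683% and 0.18% of these had a wide one.

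COLO-205 has the longest list of peaks and few members, whereas the number of promoter peaks falls in the same order as the members. The median width of the promoter peaks under the threshold was 552 bp (DU-145), 476 bp (OVCAR-3), 367 bp (COLO-205) and 343 bp (SKOV-3). Already at 1000 bp the lines had separated, with 23.6% of promoter peaks at least that wide in DU-145, 17.9% in OVCAR-3, 6.19% in COLO-205 and 4.52% in SKOV-3. At the summits of these narrower promoter peaks the median pileup was 55 tags in DU-145, 60 in OVCAR-3, 38 in COLO-205 and 36 in SKOV-3. These tags are not scaled between libraries, and their part in the order was not tested.

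**Figure D1:**
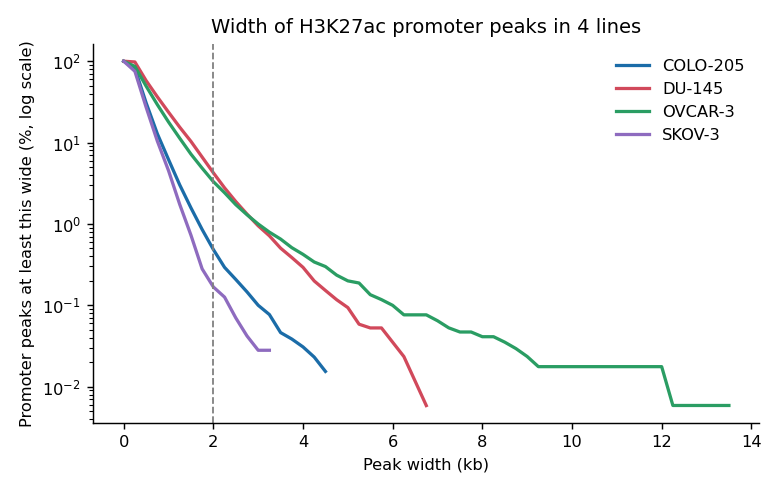
Share of promoter peaks at least as wide as the value on the horizontal axis (kb), in percent on a log scale, for each of the 4 lines, with the 2000 bp threshold as a dashed line. DU-145 lies above OVCAR-3 at 1000 bp (23.6% and 17.9%) and at 2000 bp (4.25% and 3.31%), the curves meet near 3000 bp, where the shares are 0.948% and 0.998%, and beyond this OVCAR-3 has the longest tail, up to 13591 bp. The widest peak of that tail, at PLEKHG2, lies in a 1-Mb window of chromosome 19 with 72.6% of its length in peaks.

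Among the members themselves the lines were much alike in their typical width, with medians of 2401 bp (COLO-205), 2431 bp (DU-145), 2549.5 bp (OVCAR-3) and 2467.5 bp (SKOV-3). The tails differed. OVCAR-3 had 34 members of at least 5000 bp and DU-145 had 16, while the widest in COLO-205 was 4741 bp and the widest in SKOV-3 3450 bp. Part of the OVCAR-3 tail lay in stretches of chromosome 19 dense in peaks. PLEKHG2 (13591 bp), PAF1 (12050 bp) and RPS16 (9245 bp) were in chr19:39000001-40000000, with 72.6% of its length in peaks. LAMA5 (12235 bp) was on chromosome 20 and AGRN (8780 bp) on chromosome 1. The part of peak density in this tail was not tested. The members held 4.93% of all peak base pairs in DU-145, 4.66% in OVCAR-3, 0.564% in SKOV-3 and 0.541% in COLO-205.

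No gap set the members apart from the peaks just under the threshold. DU-145 had 143 promoter peaks in the 100 bp below the threshold and 108 in the 100 bp above, and OVCAR-3 had 86 and 78. In COLO-205 the nearest peaks outside were at HS6ST3 (1996 bp) and KCMF1 (1990 bp), and the nearest inside at SPRY2 (2003 bp) and MSL1 (2013 bp). In DU-145, ZFP64 (1999 bp) and DNAJB12 (1998 bp) were just outside and FRAT2 and TMX1 (2000 bp each) just inside. In OVCAR-3, SPATA2 (1999 bp) and CLIP1 (1997 bp) were outside and ARMC7 (2000 bp) and SEPTIN9 (2003 bp) inside. In SKOV-3 PGAP3 (1964 bp) and CTBP2 (1886 bp) were outside, and SINHCAF (2013 bp) and PAX8 (2103 bp) inside, so the membership of single genes near the threshold turns on a few bases.

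Wide promoter peaks were also taller than the other promoter peaks of the same line. The fold enrichment at the summit, over the local background and as given by the authors' peak caller, had a median of 8.42 against 4.18 in COLO-205, 6.68 against 4.19 in DU-145, 14.3 against 5.86 in OVCAR-3 and 9.41 against 5.05 in SKOV-3. The number of ChIP tags piled up at the summit, solved from the fold enrichment and the p-value, had a median of 77 against 38, 94 against 55, 153.5 against 60 and 62 against 36 in the same order. Neither value is scaled between libraries.

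Height and width did not pick the same peaks, however. Across all promoter peaks of a line, the Spearman correlation of width with the −log10 q was 0.74 in OVCAR-3, 0.70 in DU-145, 0.58 in SKOV-3 and 0.57 in COLO-205. These are correlations across peaks of 1 library, which are not independent replicates. When as many promoter peaks as there are members were taken by −log10 q, they included 14 of the 63 members in COLO-205, 226 of 726 in DU-145, 174 of 564 in OVCAR-3 and 1 of 12 in SKOV-3. The weakest member had a −log10 q of 10.4 in DU-145, 11.1 in COLO-205, 14.9 in SKOV-3 and 15.7 in OVCAR-3.

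The wide peaks spanned the start and, in 3 lines, more often ran further into the gene than away from it. They covered the nearest start in 97.3% of OVCAR-3, 96.6% of DU-145, 92.1% of COLO-205 and 83.3% of SKOV-3 members, against 51.0%, 50.9%, 38.1% and 40.5% of the other promoter peaks, a share that their width favours. The median reach downstream of the start was 1572 bp (COLO-205), 1417.5 bp (DU-145) and 1494 bp (OVCAR-3), and the median reach upstream was 954 bp, 1056.5 bp and 1123 bp. In these lines 76.2%, 63.2% and 63.3% of members reached further downstream than upstream. A similar lean was present in the other promoter peaks, as the summit lay downstream of the start in 66.7%, 63.2% and 64.7% of members and in 66.1%, 61.7% and 63.2% of the other promoter peaks. SKOV-3, with 12 members, had medians of 743 bp downstream and 1404 bp upstream, and 5 members reached further downstream, and the summit was downstream in 41.7% of the 12 against 70.1% of its other promoter peaks.

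**Figure D2:**
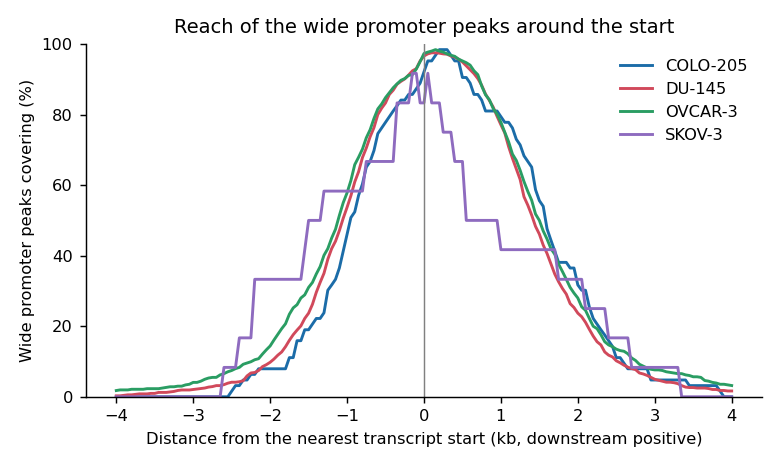
Percent of the wide promoter peaks of each line that cover a position, against the distance from the nearest transcript start (kb, downstream positive). At 1 kb downstream 79.4% of the COLO-205, 77.1% of the DU-145 and 77.8% of the OVCAR-3 members cover the position, and at 1 kb upstream 46.0%, 53.7% and 57.8%, while the SKOV-3 steps are those of 12 peaks.

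Most members had 1 gene within reach of the summit. In DU-145 104 of 726 summits (14.3%) lay within 1 kb of the starts of 2 or more genes. It was 53 of 564 (9.4%) in OVCAR-3, 5 of 63 (7.94%) in COLO-205 and 1 of 12 (8.33%) in SKOV-3. Among the other promoter peaks the shares were 13.2%, 13.6%, 11.0% and 14.8% in the same order. POLR2L and TSPAN4, ZBTB1 and ZBTB25, and PAF1 and MED29 are such pairs, and each pair shares the same peak and therefore the same values. Conversely, 30 genes in DU-145, 34 in OVCAR-3, 2 in COLO-205 and 1 in SKOV-3 had 2 or more members. Some starts inside a member were not counted for it because the summit was more than 1 kb away, at 12 genes in DU-145, 13 in OVCAR-3, 1 in COLO-205 and 0 in SKOV-3.

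Wide peaks elsewhere in the genome were also present. Of all peaks of at least 2000 bp, 59.8% in DU-145, 43.9% in OVCAR-3, 34.3% in SKOV-3 and 30.7% in COLO-205 had their summit at a promoter, where 22.6%, 22.4%, 51.0% and 15.2% of all peaks had theirs. In SKOV-3, with 12 of 35, the share of wide peaks at promoters was below that of its whole list. Of the peaks away from promoters 0.838% were wide in DU-145, 1.22% in OVCAR-3, 0.196% in COLO-205 and 0.335% in SKOV-3, which is below the share among promoter peaks in the first 3 and above it in SKOV-3.

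The 4 lists held 1197 genes in all, and most of them were wide in a single line. A total of 961 genes (80.3%) were wide in 1 line, 215 (18.0%) in 2 lines, 17 (1.42%) in 3 lines and 4 (0.334%) in all 4. DU-145 alone accounted for 580 of these genes and OVCAR-3 alone for 346, and 199 were wide in these 2 lines and no other. COLO-205 had 34 genes of its own and SKOV-3 had 1, ERBB2.

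Yet most of the promoters were acetylated in every line at some width. Of the 1197 genes, 751 (62.7%) had a promoter peak in all 4 lines, against 24.1% of all protein-coding genes and 32.9% of the 14469 genes with a promoter peak in at least 1 line. Of the genes wide in DU-145 only, 570 of 580 (98.3%) had a narrower promoter peak in another line, where 92.0% of all genes with a promoter peak in DU-145 and no wide one elsewhere did. In OVCAR-3 this was 317 of 346 (91.6%) against 91.2%, in COLO-205 24 of 34 (70.6%) against 86.3% and in SKOV-3 1 of 1 against 98.9%. The share was thus close to that of the other promoters in OVCAR-3 and below it in COLO-205.

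**Figure D3:**
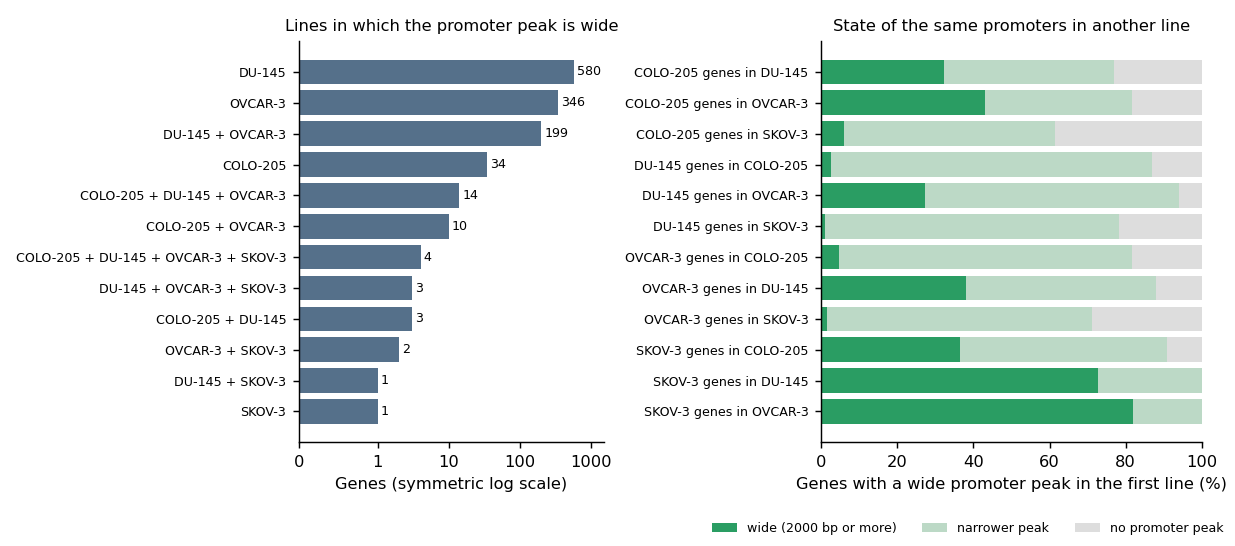
Left, number of genes for each combination of lines in which the promoter peak is wide (log scale above 1); right, percent of the genes wide in one line whose promoter is wide, narrower or without a peak in another line. The combinations led by DU-145 (580 genes), OVCAR-3 (346) and both (199) hold most genes, and DU-145 genes had a narrower peak in COLO-205 in 84.3% and in SKOV-3 in 77.2%.

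The share of genes wide in at least 1 other line was 27.9% in DU-145 (exact 95% interval 24.8 to 31.1%), 40.1% in OVCAR-3 (36.1 to 44.3%), 47.7% in COLO-205 (35.1 to 60.5%) and 90.9% in SKOV-3 (58.7 to 99.8%). Over all protein-coding genes, the share wide in at least 1 line other than the line named was 3.12%, 4.3%, 5.88% and 6.04%. Among genes with any promoter peak in the line named it was 4.64%, 6.78%, 10.2% and 14.1%. The larger a list, the more of it is left without a partner in the short lists, so the 4 shares cannot be read as an order of likeness between lines. With the 12 widest promoter peaks taken in every line, the lists had 0 genes in common, although KCTD1, IRF2BPL, ACTG1, FOXP4, VEGFA and AGRN, each among the widest of a line, also passed 2000 bp in another line.

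DU-145 and OVCAR-3 shared 220 genes, which is 27.4% of the DU-145 list and 38.1% of the OVCAR-3 list. Of all genes with a promoter peak in DU-145, 4.42% were wide in OVCAR-3, and of those with one in OVCAR-3, 6.48% were wide in DU-145. COLO-205 shared 28 genes with OVCAR-3 (43.1% of its own list and 4.84% of that of OVCAR-3) and 21 with DU-145 (32.3% and 2.61%), and the intervals of the COLO-205 shares, 30.8 to 56.0% and 21.2 to 45.1%, overlap. Of all genes with a promoter peak in COLO-205, 4.96% were wide in OVCAR-3 and 7.34% in DU-145. Of the 11 SKOV-3 genes, 9 were wide in OVCAR-3, 8 in DU-145 and 4 in COLO-205, against 6.76%, 10.3% and 0.656% of all genes with a promoter peak in SKOV-3. Both ovarian lines, and no other, had a wide peak at 2 genes, PAX8 and SINHCAF.

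Overlap was also measured in base pairs. A DU-145 member was covered to a median of 68.2% by OVCAR-3 peaks of any width, 32.9% by COLO-205 peaks and 23.8% by SKOV-3 peaks. An OVCAR-3 member was covered to 69.9% by DU-145 peaks, 31.5% by COLO-205 peaks and 15.4% by SKOV-3 peaks. How often 1 wide peak of a line met 2 or more peaks of another differed between the pairs of lines. The highest shares were 45.6% of the DU-145 and 47.0% of the OVCAR-3 members, both with COLO-205 peaks. Of the COLO-205 members, 19.0% met 2 or more DU-145 peaks and 19.0% met 2 or more OVCAR-3 peaks. The lowest share was 8.33% of the SKOV-3 members, with OVCAR-3 peaks. Width and a long list of peaks both favour such meetings, and no share was taken for the other promoter peaks.

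Among the genes wide in all 4 lines, ACTG1 encodes gamma actin of the cytoskeleton and UBTF the upstream binding factor of ribosomal RNA gene transcription. ARID1B is a DNA-binding subunit of the SWI/SNF chromatin remodelling complex, and IRF2BPL is a nuclear regulator related to the IRF2-binding proteins. The ACTG1 peak was 2457 bp (COLO-205), 3121 bp (DU-145), 3974 bp (OVCAR-3) and 2539 bp (SKOV-3), and it was widest in OVCAR-3. The UBTF peak was 2897, 3815, 2953 and 2264 bp in the same order and was widest in DU-145. The IRF2BPL peak was 2070, 3419, 3538 and 3294 bp, with COLO-205 well below the other lines. The ARID1B peak, at 2772, 2124, 2976 and 2112 bp, was close to the threshold in DU-145 and SKOV-3. The number of such genes moved with the rule, to 24 with peaks less than 350 bp apart merged, to 18 at a width of 1500 bp and to 0 at 3000 bp, and with the 5′-most start of each gene alone it was 1, IRF2BPL. All 4 lie on chromosomes 6, 14 and 17, which are among those where wide peaks were frequent in a line.

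Of the 17 genes wide in 3 lines, 14 missed SKOV-3, and at these SKOV-3 had a narrower peak or none. ARID1A, the paralogue of ARID1B in the same complex, was 2411 bp (COLO-205), 2133 bp (DU-145), 2561 bp (OVCAR-3) and 1677 bp (SKOV-3). SETD1B, a histone H3 lysine 4 methyltransferase, was 2629, 2793, 2636 and 1277 bp, in COLO-205 and OVCAR-3 in a peak it shares with RHOF. CHD3, a helicase of the NuRD complex, was 2131, 2185, 2408 and 290 bp, in a peak shared with NAA38. MSL1, of a histone acetyltransferase complex, was 2013, 2473, 2286 and 1870 bp.

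SQSTM1, the autophagy receptor p62, was 3013 bp (COLO-205), 4152 bp (DU-145), 3639 bp (OVCAR-3) and 1545 bp (SKOV-3), and the neighbouring glycosyltransferase gene MGAT4B shared its peak in COLO-205 and DU-145. SLC16A3, a lactate exporter, was 2497, 4343, 5201 and 1245 bp. CDKN2A, a tumour suppressor gene, was 2134, 2916 and 2947 bp and had no promoter peak in SKOV-3. These peaks lie at its upstream starts, from which the ARF transcript is read, and not at the start of the p16 transcript. E2F3, IRF2BP2, ZBTB1 and ZBTB25 were between 2085 and 3206 bp in the 3 lines and between 1186 and 1527 bp in SKOV-3.

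SKOV-3 was the line with the fewest members, and they are few enough to give in full. Besides ACTG1, ARID1B, IRF2BPL and UBTF, they lie at KCTD1, POLR2L with TSPAN4, PTPRM, PAX8, SINHCAF and, with 3 separate peaks, ERBB2. KCTD1, a BTB-domain repressor, had the widest, at 3450 bp, against 251 bp (COLO-205), 2524 bp (DU-145) and 4547 bp (OVCAR-3). The peak at POLR2L, a subunit of the RNA polymerases, and TSPAN4, a tetraspanin, was 2447 bp, and 598, 2774 and 3091 bp in the other lines in that order. PTPRM, a receptor protein tyrosine phosphatase, was 2295 bp (SKOV-3) and 2654 bp (DU-145), 1240 bp (OVCAR-3) and without a peak in COLO-205.

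ERBB2 encodes a receptor tyrosine kinase of the EGF receptor family and was the gene wide in SKOV-3 and in no other line. Its peak at the canonical start, chr17:37855919-37858714, was 2796 bp, with a fold enrichment of 19.3 and 151 tags at the summit, which made it the tallest of the 12 SKOV-3 members. The others, at starts further into the gene, were 2594 bp (chr17:37864372-37866965, 36 tags) and 2488 bp (chr17:37871271-37873758, 48 tags). In the other lines the widest ERBB2 promoter peak was 1130 bp (COLO-205), 1226 bp (DU-145) and 512 bp (OVCAR-3). The neighbouring PGAP3 peak missed the threshold in SKOV-3 at 1964 bp. Peaks covered 11.9% of this 1-Mb window of SKOV-3, where the median over its members was 1.74%, and whether this moves the widths was not tested.

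PAX8, a transcription factor of the Müllerian duct epithelium and of ovarian carcinoma, was 4453 bp (OVCAR-3) and 2103 bp (SKOV-3), and 890 bp (COLO-205) and 1070 bp (DU-145). The OVCAR-3 peak had a fold enrichment of 31.3 and 227 tags at its summit, the SKOV-3 peak 8.86 and 46, values that are not scaled between the libraries. SINHCAF, a subunit of the SIN3 histone deacetylase complex, was 2558 bp (OVCAR-3) and 2013 bp (SKOV-3), against 1499 bp (COLO-205) and 655 bp (DU-145). Both ovarian lines had wider peaks than the other lines at these genes, and in SKOV-3 these were the narrowest of its members.

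Among the widest COLO-205 members were FOXP4 (4741 bp), a forkhead transcription factor, and ASCL2 (4591 bp), the transcription factor of intestinal stem cells. Others were MDFI (4287 bp), an inhibitor of myogenic bHLH factors, and the nucleotide sugar transporter family member SLC35D3 (3818 bp). FOXP4 was also wide in OVCAR-3, at 2436 bp. ASCL2, SLC35D3 and the synaptic adhesion gene LRFN2 (3336 bp) had no promoter peak in any other line. MYB, a progenitor transcription factor that is also expressed in colon, was 3666 bp with 170 tags at its summit in COLO-205, and 298 bp (DU-145), 351 bp (OVCAR-3) and without a peak in SKOV-3.

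In DU-145 the widest members were at INF2 (6975 bp), a formin that polymerises actin, VEGFA (6630 bp), the angiogenic growth factor, and TGIF1 (6392 bp), a homeodomain repressor of TGF-β signalling. INF2 had another member of 6216 bp at an upstream start, and was between 1042 and 1334 bp in the other lines. VEGFA was 2920 bp in OVCAR-3, 1009 bp in COLO-205 and 292 bp in SKOV-3, and TGIF1 was 3696, 953 and 1115 bp. Among the genes wide in DU-145 only, ATP10A, a lipid flippase, was 5874 bp and SBNO2 5761 bp. The homeodomain factor NKX2-8 was 5208 bp and PLAU, which encodes urokinase, 5160 bp. PLAU and SBNO2 had peaks of 794 to 1313 bp in the other lines, so what set DU-145 apart at them was the width and not the presence of the mark.

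OVCAR-3 held the widest peaks of the series. PLEKHG2, a guanine nucleotide exchange factor, had a member of 13591 bp (chr19:39902604-39916194), which starts upstream of its canonical start and runs on over the gene body. LAMA5, a laminin chain of basement membranes, had 12235 bp, and PAF1 with MED29, of the PAF elongation complex and of Mediator, 12050 bp. RPS16, a ribosomal protein, had 9245 bp and AGRN, the proteoglycan agrin, 8780 bp. In the other lines PLEKHG2, PAF1 and RPS16 were between 339 and 1155 bp. AGRN was 2499 bp in DU-145. LAMA5 had no summit at a promoter in another line, although a start of it lay inside a peak there.

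**Figure D4:**
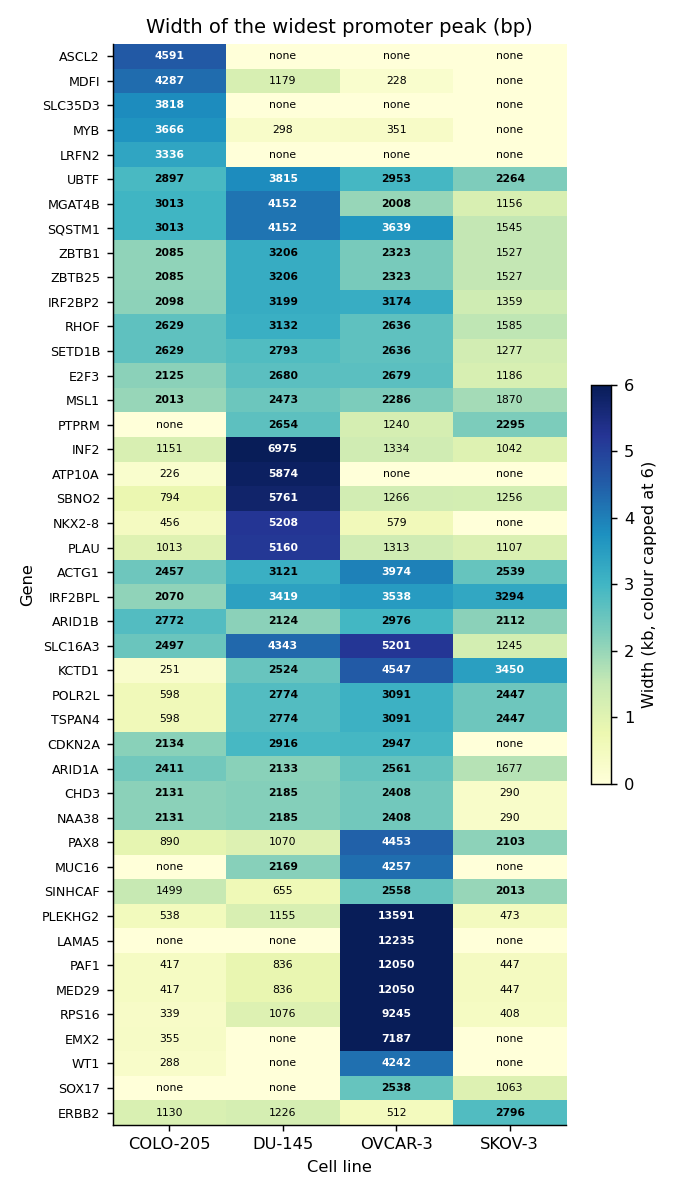
Width (bp, written in each cell) of the widest promoter peak of named genes in the 4 lines, with colour from 0 to 6 kb, bold where the peak is at least 2000 bp, and "none" where no summit lies within 1 kb of a start. ACTG1, IRF2BPL, UBTF and ARID1B are bold in every column, while ASCL2, SLC35D3 and LRFN2 are bold in COLO-205 with "none" in the other columns.

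The markers of the tissue of origin were compared with the labels. Of 6 Müllerian and ovarian carcinoma markers, 5 were wide in OVCAR-3, where 2.92% of all genes were. EMX2, a homeodomain factor of the urogenital tract, was 7187 bp, PAX8 4453 bp, MUC16, the CA-125 antigen, 4257 bp, WT1 4242 bp and SOX17 2538 bp, while MECOM was 718 bp. In SKOV-3, PAX8 was wide, SOX17 (1063 bp) and MECOM (461 bp) had narrower peaks, and WT1, MUC16 and EMX2 had none. Outside the ovarian lines 4 of the 6 had a promoter peak in COLO-205 and 3 in DU-145. MUC16 was wide in DU-145, at 2169 bp, PAX8 and MECOM had narrower peaks in both lines (MECOM 374 bp in COLO-205 and 291 bp in DU-145), and WT1 and EMX2 had peaks of 288 bp and 355 bp in COLO-205.

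Of 6 markers of colon epithelium, 1 was wide in COLO-205 and none in the other lines. CDX2 (1750 bp), HNF4A (762 bp) and VIL1 (623 bp) had narrower peaks in COLO-205 that no other line had. CDX1 and CDH17 had no promoter peak in COLO-205. None of the 6 prostate luminal markers was wide in any line, and in DU-145 TMPRSS2 had a peak of 269 bp and KLK3, KLK2 and HOXB13 had none. With 4 of the 6 lacking a peak, the promoters of this list do not mark DU-145 as luminal prostate.

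Of 6 epithelial markers, the keratin genes KRT8 and KRT18 were wide in DU-145 and OVCAR-3 (33.3% in each, where 4.06% and 2.92% of all genes were wide), and none was wide in COLO-205 or SKOV-3. They shared a peak of 2640 bp in DU-145, were 2669 bp and 2443 bp in OVCAR-3 and 782 bp and 414 bp in COLO-205, and shared a peak of 259 bp in SKOV-3. KRT19 was 454 bp in SKOV-3 and between 610 and 1555 bp in the other lines. CDH1, EPCAM and CLDN4, with peaks in the other lines, had none in SKOV-3. A promoter peak was less frequent in SKOV-3 for genes at large, at 30.8% of all genes, against 48.1% in COLO-205, 58.1% in DU-145 and 59.0% in OVCAR-3. Of 6 mesenchymal markers 1 was wide, in DU-145, and 2, 4, 1 and 1 had a promoter peak in DU-145, SKOV-3, COLO-205 and OVCAR-3. VIM, the mesenchymal intermediate filament, was 3033 bp in DU-145 and 799 bp in SKOV-3 and had no peak in COLO-205 and OVCAR-3. ZEB1, a repressor of CDH1, fell just short in DU-145 at 1994 bp and was 1268 bp in SKOV-3, 487 bp in COLO-205 and 284 bp in OVCAR-3. FN1 and TWIST1 had peaks of 192 bp and 371 bp in SKOV-3 alone, and ZEB2 and CDH2 had none in any line. The 6 immune markers had no promoter peak in any line. Of the 6 fibroblast markers COL1A1 had narrower peaks in DU-145 and OVCAR-3, and none of the 5 endothelial markers found in the annotation was wide.

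The lists of AP-1, YAP and TEAD, NF-κB and TGF-β genes had wide members in DU-145 and OVCAR-3, where 4.06% and 2.92% of all protein-coding genes were wide. Of 9 AP-1 subunits, FOS (2527 bp) and FOSL2 (2690 bp) were wide in DU-145 (22.2% of the list) and FOSL2 (2160 bp) in OVCAR-3 (11.1%), and FOS was 772 bp in OVCAR-3 with a fold enrichment of 19.0, where the members of that line had a median of 14.3. Of 7 YAP and TEAD targets, AXL (4188 bp), AMOTL2 (2832 bp) and AJUBA (2428 bp) were wide in DU-145 (42.9%), and AMOTL2 (4043 bp) and AJUBA (2062 bp) in OVCAR-3 (28.6%). Of 9 NF-κB targets and inhibitors, NFKBIA, the inhibitor IκBα, and NFKB2 were wide in both (22.2% each), at 4177 and 3631 bp in DU-145 and 3230 and 3673 bp in OVCAR-3. Of 9 TGF-β feedback genes and targets, SMAD7 (2639 bp), SKIL (2624 bp), ID1 (2058 bp) and SMAD6 (2037 bp) were wide in OVCAR-3 (44.4%), and SMAD3 (2137 bp) and SKIL (2063 bp) in DU-145 (22.2%). These lists are short and hold genes chosen as well-known targets, so their shares are a description.

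Of 8 feedback inhibitors of ERK signalling, SPRY2 was wide in COLO-205, at 2003 bp, its relative SPRY1 in OVCAR-3, at 2565 bp, and none in DU-145 or SKOV-3. This is 12.5% of the list in COLO-205 and in OVCAR-3, where 0.328% and 2.92% of all genes were wide, but is 1 gene in each. Of 8 genes of the MYC family and the cyclins, CCND1 (2189 bp) was wide in DU-145 and CCNE1 (3229 bp) in OVCAR-3, where its summit had a fold enrichment of 35.2. These too are 12.5% of their list, against 4.06% of all genes in DU-145 and 2.92% in OVCAR-3. CCNE1 was 1020 bp in DU-145, 281 bp in COLO-205 and 214 bp in SKOV-3. It lies on chromosome 19, where 7.6% of the OVCAR-3 promoter peaks were wide, against 3.31% over all chromosomes. Its OVCAR-3 peak starts at chr19:30301055, and members at C19orf12 (4157 and 3913 bp, from 30204594 and 30198759) and PLEKHF1 (6076 bp, from 30154555) lie near it. Whether this moves its width was not tested. Of 12 immediate early genes ZFP36 (2048 bp) was wide in DU-145, which is 8.33% against 4.06%, and none in the other lines. Of 9 Krüppel-like factors KLF16 (2950 bp), KLF9 (2319 bp), KLF3 (2187 bp) and KLF13 (2033 bp) were wide in DU-145 (44.4% against 4.06%), and KLF3 (2382 bp) in OVCAR-3 (11.1% against 2.92%).

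Of 14 master regulators named for these lines in the study, a list it chose on data of the same lines, YY1 (3023 bp), SETDB1 (2668 bp), PITX1 (2543 bp) and FOS were wide in DU-145, which is 28.6% of the list against 4.06% of all genes. Of 39 HOX genes, HOXB6, HOXB7, HOXC6 and HOXC9 were wide in DU-145, where HOXC6 and HOXC9 shared a peak of 2665 bp. These 4 are 10.3% of the HOX genes, against 4.06% of all genes in DU-145. In the other lines no HOX gene was wide. A promoter peak of any width was found at 24 HOX genes in COLO-205, at 17 in DU-145 and in OVCAR-3 and at 14 in SKOV-3.

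Gene families that are abundantly transcribed in most cells differed in their shares. Of 77 cytosolic ribosomal protein genes, 7 (9.09%) were wide in OVCAR-3, 4 (5.19%) in DU-145 and 0 in COLO-205 and SKOV-3, against 2.92% and 4.06% of all genes in OVCAR-3 and DU-145, and 76, 71, 63 and 49 of them had a promoter peak. Genes with any promoter peak were wide in 4.95% and 6.99%. Their median promoter peak was 735 bp in OVCAR-3 and 719 bp in DU-145, against 667 and 805 bp over all genes with a peak. None of the 66 core histone genes was wide in any line, although 43 had a promoter peak in COLO-205 and in OVCAR-3, 40 in DU-145 and 26 in SKOV-3, and none of the 9 heat shock and 7 p53 target genes was wide. Of 11 glycolysis genes 18.2% were wide in each of DU-145 and OVCAR-3. ENO1 (2792 bp) and PFKP (3459 bp) were wide in DU-145, and ENO1 (2997 bp) and GAPDH (2348 bp) in OVCAR-3. Of 381 olfactory receptor genes, silent in most tissues, none was wide and between 1 and 9 a line had any promoter peak.

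The wide promoters were rich in G and C. In 1 kb centred on the nearest start, the median GC content was 69.8% at COLO-205, 68.6% at DU-145, 67.9% at OVCAR-3 and 67.0% at SKOV-3 members, against 64.6%, 63.3%, 63.4% and 66.3% at the other promoter peaks of the line and 59.6% at the starts of all protein-coding genes. CpG dinucleotides numbered 100, 93, 89 and 100 in this window against 79, 76, 76 and 89. The share of starts with a ratio of observed to expected CpG of at least 0.6 was above that of the other promoter peaks in COLO-205 (82.5% against 76.5%) and DU-145 (85.9% against 81.2%) and below it in OVCAR-3 (77.6% against 81.2%) and SKOV-3 (83.3% against 91.1%). GC boxes such as those of ACTG1 and UBTF were found in the 150 bases upstream in 63.5% of COLO-205, 68.8% of DU-145, 64.3% of OVCAR-3 and 58.3% of SKOV-3 members, against 56.2%, 57.9%, 57.7% and 64.0% at the other promoter peaks and 45.1% of all genes.

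A CCAAT box, in contrast, was found at smaller shares of the members of 3 lines, with 6.35% in COLO-205, 15.1% in DU-145 and 15.6% in OVCAR-3 against 19.7%, 23.1% and 22.5% at the other promoter peaks and 25.4% over all genes. In SKOV-3 it was found at 25.0% of 12 members, against 19.9%. A TATA box was found at 4.09% of OVCAR-3 members and 2.55% of its other promoter peaks, at 2.76% and 2.61% in DU-145, at 1.59% and 3.1% in COLO-205 and at 0.0% and 2.19% in SKOV-3, so its direction differed between the lines. An ETS site was found at 2.13% of OVCAR-3 members against 5.39%, 4.83% against 5.07% in DU-145, 3.17% against 4.2% in COLO-205 and 0.0% against 5.74% in SKOV-3. Neighbouring promoters share base composition, so these shares are a description of the windows.

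Members were unevenly spread over the genome, and differently so in each line. In COLO-205, 20 of 63 members (31.7%) lay on chromosome 6, which held 3.65% of the promoter peaks of that line, and there 4.21% of promoter peaks were wide against 0.485% overall. In DU-145, 90 of 726 (12.4%) lay on chromosome 14, where 11.5% of promoter peaks were wide. OVCAR-3 had 93 of 564 (16.5%) on chromosome 19, where 7.6% were wide, and SKOV-3 had 5 of 12 on chromosome 17, where 1.15% were wide. MYB, MDFI, FOXP4 and SLC35D3 are on chromosome 6, INF2 and NKX2-8 on chromosome 14, and PLEKHG2, PAF1 and RPS16 on chromosome 19, so these leading genes of their lines are among the members touched by this.

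**Figure D5:**
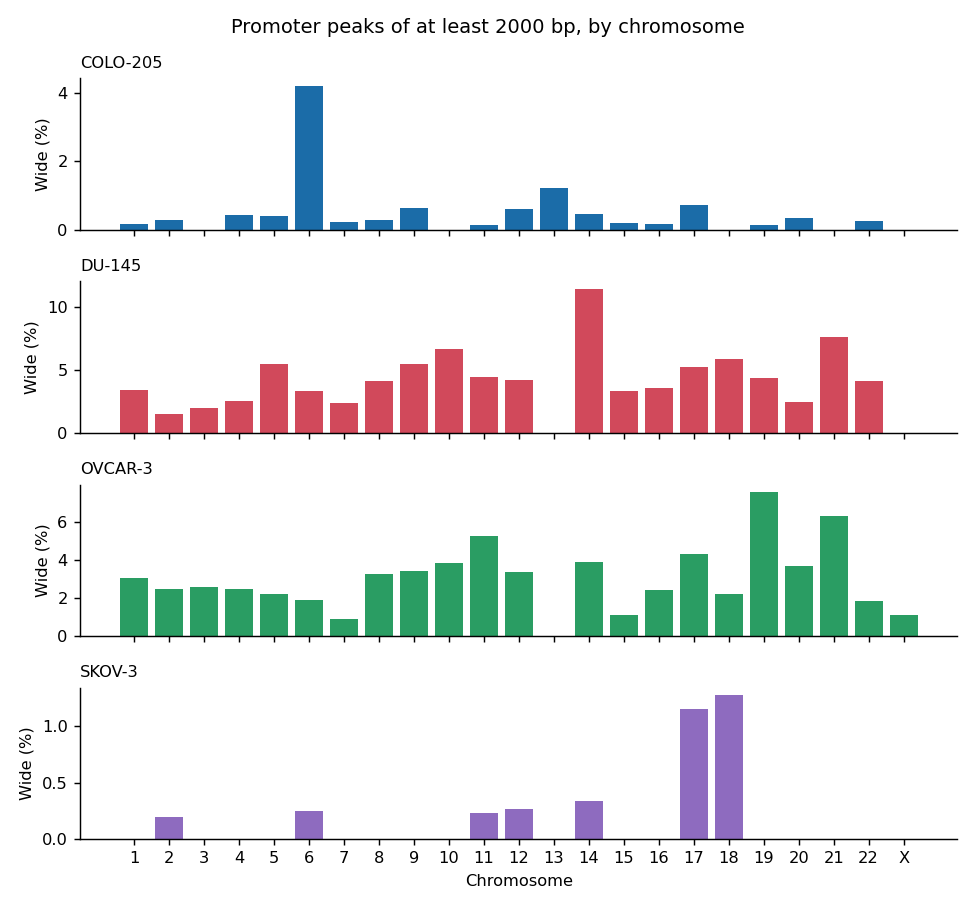
Percent of promoter peaks of at least 2000 bp on each chromosome in the 4 lines, each on its own vertical axis. Chromosome 6 stands out in COLO-205 (4.21%), chromosome 14 in DU-145 (11.5%) and chromosome 19 in OVCAR-3 (7.6%), while the SKOV-3 bars on chromosomes 17 and 18 are 5 and 2 peaks.

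Part of the members lay in stretches where peaks of all kinds were dense. The density was taken as the share of base pairs in peaks, members included, so it is built in part from the widths that the rule used. In 1-Mb windows of which peaks covered at least 20%, 18.5% of the OVCAR-3 promoter peaks were wide, against 2.71% elsewhere, and these windows held 119 of its 564 members. In COLO-205 the shares were 12.0% and 0.373%, with 15 of 63 members, and in DU-145 26.1% and 4.07%, with 36 of 726 (4.96%). SKOV-3 had no such window. The windows with most members were chosen after their values were seen. In OVCAR-3 they were chr19:54000001-55000000, with 26 members and 73.5% of its length in peaks, and chr19:39000001-40000000, with 23 members and 72.6%, which holds PLEKHG2, PAF1 and RPS16. In COLO-205 chr6:41000001-42000000, with FOXP4 and MDFI, had 6 members and 43.1%. In DU-145 the windows with most members were not dense by this measure: chr19:1000001-2000000, with SBNO2, had 14 members and 15.9%, and chr17:7000001-8000000, with NAA38, had 12 members and 12.3%. The window chr14:35000001-36000000, with NFKBIA, had 8 members and 51.2%.

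Some genes of dense windows had no promoter peak in any other line. In OVCAR-3 12 of 110 genes of dense windows (10.9%) were of this kind, against 17 of 468 elsewhere (3.63%), and in COLO-205 4 of 13 against 6 of 52, while in DU-145 it was 0 of 40 against 10 of 764. In OVCAR-3 the dense window at chr19:54000001-55000000 held LILRA5 (3616 bp), LILRA4 (5421 bp) and LAIR1 (2046 bp), which encode receptors of leukocytes, although no marker of the immune list had a promoter peak. These genes were also named after their values were seen. The part of the peak density in the widths was not tested. Without the dense windows the order of the lines was the same, with 690 members in DU-145, 445 in OVCAR-3, 48 in COLO-205 and 12 in SKOV-3.

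Of the genes wide in a line and without a promoter peak in the others, 10 were in COLO-205, 10 in DU-145 and 29 in OVCAR-3. They are 29.4%, 1.72% and 8.38% of the genes wide in that line only. Since 86.3%, 92.0% and 91.2% of the comparable promoters of these lines had a peak elsewhere, a lack of one was about as frequent at the wide genes as at other promoters in OVCAR-3, less frequent in DU-145 and more frequent in COLO-205. The genes named next were picked after their values were seen. In COLO-205 they included ASCL2 and the Wnt receptor gene FZD10 (2215 bp), as well as SOX21 (2892 bp) and SOX1 (2360 bp) on chromosome 13. In DU-145 they included EPAS1 (2842 bp), which encodes the hypoxia-inducible factor HIF-2α, the cytokine signalling inhibitor SOCS2 (3080 bp) and the actin crosslinker FLNC (2827 bp). In OVCAR-3 they included FOXL2 (2608 bp), a transcription factor of ovarian granulosa cells, the inhibin chain INHBB (3657 bp) and the ligand gene WNT5A (2390 bp). At these genes the presence of a peak in the lists, and not its width alone, differed between the lines. SPON1 (4080 bp), a matrix protein, had the tallest summit of the OVCAR-3 genes of this kind, with 310 tags.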

How the data were processed

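Per the submitters' processing notes, reads were mapped to hg19 by Bowtie2 2.1.0, and the authors called peaks library by library using MACS2 2.1.0.20150603. The values deposited for a peak are a score (10 times its −log10 q, as an integer), its fold over local background, a −log10 p, a −log10 q and a summit offset, none of them scaled between libraries. The methods speak of merging peaks less than 350 bp apart, but closer neighbours remain in the deposited lists, which were used unmerged, with merging as an alternative. Peak positions were within the GRCh37 chromosome lengths.

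From these values the pileup at each summit was solved as the integer that gave the deposited Poisson −log10 p to within 0.001, which held for 100% of the summits, and was tested on simulated data. A gene counted where a summit lay within 1 kb of any of its protein-coding starts, and where it had several such peaks the widest was used. The members, the 24 gene lists and the alternatives were chosen with earlier results of these data known, and the pattern for ribosomal genes was corrected after the lists were read, to leave out paralogues. Named genes are the 5 widest members per line, all genes wide in all 4 lines, the 5 widest per line among genes wide there only, those wide only in both ovarian lines, the members next to the threshold and the members of the gene lists. The genes wide in 3 lines and the remaining SKOV-3 members were added for completeness. A list member with a start on the Y chromosome was not used.

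Read depth per library is not in the lists. Python 3.11.15, numpy 2.4.6, pandas 2.3.3, scipy 1.17.1 and matplotlib 3.10.9 were used. No test was made between lines, since each has 1 library. Some genes and 1 promoter sequence are not reported here.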

Additional observations from a re-analysis of the deposited data

How the results depend on the processing

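Each count and share was recomputed with 1 choice changed at a time. Of the recomputed values, leaving out those of the −log10 q minimum, 47 stayed close to those reported and 45 moved. At a width of at least 1500 bp 211 genes were wide in COLO-205, 54 in SKOV-3, 1942 in DU-145 and 1270 in OVCAR-3, 18 were wide in all 4 lines, and 61.6% (COLO-205), 33.7% (DU-145) and 51.1% (OVCAR-3) of genes were wide in another line. At 3000 bp 180 genes were wide in DU-145, 174 in OVCAR-3, 14 in COLO-205 and 2 in SKOV-3, 0 in all 4, with shares of 17.2%, 18.4%, 21.4% and 100.0% in that order, and OVCAR-3 then had more wide promoter peaks (170) than DU-145 (162). With peaks less than 350 bp apart merged there were 1972, 1270, 253 and 87 genes, 24 of them wide in all 4, and shares of 34.7% in DU-145 and 54.3% in OVCAR-3. With the 5′-most start of each gene alone there were 41 genes in COLO-205 and 4 in SKOV-3, 1 gene was wide in all 4 lines (IRF2BPL), and the shares were 24.2% in DU-145 and 100.0% of 4 genes in SKOV-3. With the 12 widest promoter peaks of every line there were 12 genes in COLO-205, 11 in DU-145 and 14 in OVCAR-3, 0 genes were wide in all 4 lines and, for each line, 0.0% were wide in another. With the summit within 500 bp of a start the DU-145 share was 24.2%, with an overlap of at least 50% in place of the same gene the OVCAR-3 share was 34.4%, and without the dense 1-Mb windows, a setting chosen after seeing the data, it was 45.9%. With chromosomes 6, 14, 17 and 19 left out, chosen after seeing that they hold many members, there were 34 genes in COLO-205, 535 in DU-145 and 6 in SKOV-3, 100.0% of these 6 were wide in another line, and 0 genes were wide in all 4, since the 4 such genes lie on these chromosomes. Leaving out chromosomes 3, 13 and 14, leaving out SKOV-3 and an overlap of 1 bp moved none of the counts by over 1.5 times and none of the shares out of its interval. A −log10 q of at least 10 could not remove a member, since the weakest had 10.4. DU-145 had the most and SKOV-3 the fewest genes in every setting except the equal numbers. The shares moved with the threshold and with the number of peaks that passed it. No paired analysis was possible because each line has 1 library and shares no replicate with another.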
